A study of Mus musculus with 12 samples.

Results

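The interferon-stimulated genes described here are 34 genes taken by name, and all 34 were found among the 47643 genes of the count table and had enough counts to be tested. They comprise transcription factors of the interferon pathway, sensors of foreign nucleic acid, antiviral effectors, interferon-inducible GTPases, ISG15 with its protease, and the chemokine gene Cxcl10. Osteoclasts (OCs), the cells that resorb bone, were differentiated with M-CSF and RANKL in all groups, from bone marrow monocytes (BMMs) that came from BALB/c WT mice, and bulk RNA-seq. was performed on 12 libraries in 3 groups of 4 biological replicates. The OCsCtr group was left unstimulated. The OCsEo group received sorted eosinophils from IL-5tg/4get mice at a BMMs/Eos ratio of 1:2 from day 0 for 48 h, and the OCsEoS group received eosinophil supernatant at a dilution of 1:2 over the same time. The stimuli were washed away before RNA was harvested on day 3, so that any eosinophils left in the OCsEo cultures contribute to their RNA, and the age of the mice was not given. The comparisons ask how contact with eosinophils or with their soluble products changes the transcripts of osteoclasts. Both comparisons with unstimulated osteoclasts share the same OCsCtr libraries.

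Interferons are secreted when a cell senses viral or other foreign nucleic acid, and they act on the same cell and its neighbors. Type I interferon binds the receptor of IFNAR1 and IFNAR2, the kinases JAK1 and TYK2 activate transcription factors, among them STAT2, and STAT2 in a complex with IRF9 binds the interferon-stimulated response element (ISRE) in the promoters of the target genes. In osteoclast precursors, RANKL is known to induce interferon beta, which in turn restrains osteoclast formation, and interferon gamma also restrains it.

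The ISRE is shown first, because it is the sequence these genes are known for. The promoter table of RefSeq (GRCm38.p6) held 26 of the 34 genes, and the 250 bases before the transcription start were searched on both strands for the letters GAAANNGAAA. These letters were found in 12 of the 26 genes (46.2%), against 3.46% of all 27018 genes with a promoter in the table. The letters TTCNNNGAA of the gamma-activated site, a second element of interferon-responsive promoters, were found in 4 of the 26 genes (15.4%), against 8.13% of all genes, and can overlap the first motif. The promoters below are those of Cxcl10, which is the gene that changed in both comparisons, of Bst2 and Oas1a, which are among the genes with the smallest p-values, and of Isg15, Ifit1, Ifit3 and Rsad2, which are classical interferon targets. Each is read 5′ to 3′ on the strand of its gene, and capitals mark the letters GAAANNGAAA or their reverse complement.
Cxcl10, chr5:92349048-92349139, minus strand: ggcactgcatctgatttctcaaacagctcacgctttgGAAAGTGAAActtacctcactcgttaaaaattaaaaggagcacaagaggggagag
Bst2, chr8:71537542-71537641, minus strand: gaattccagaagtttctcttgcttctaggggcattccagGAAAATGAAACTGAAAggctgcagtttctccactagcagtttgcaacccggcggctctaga
Oas1a, chr5:120907526-120907584, minus strand: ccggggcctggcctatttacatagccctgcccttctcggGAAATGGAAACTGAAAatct
Isg15, chr4:156200830-156200929, minus strand: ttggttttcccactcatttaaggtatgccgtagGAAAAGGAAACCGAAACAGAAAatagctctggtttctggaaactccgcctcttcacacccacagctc
Ifit1, chr19:34640759-34640858, plus strand: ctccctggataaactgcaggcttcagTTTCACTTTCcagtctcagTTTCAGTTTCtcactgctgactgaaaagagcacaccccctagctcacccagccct
Ifit3, chr19:34583362-34583461, plus strand: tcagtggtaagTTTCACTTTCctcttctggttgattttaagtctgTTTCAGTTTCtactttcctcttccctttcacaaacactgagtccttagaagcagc
Rsad2, chr12:26456518-26456617, minus strand: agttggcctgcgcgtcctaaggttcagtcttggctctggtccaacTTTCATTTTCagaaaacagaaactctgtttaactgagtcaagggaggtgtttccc

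Isg15 held 3 overlapping matches, which began 78, 72 and 66 bases before the start, whereas the match of Cxcl10 began 213 bases before it. Bst2 and Oas1a each held 2 overlapping matches, and Ifit1 and Ifit3 each held 2 that were apart. A match is a description of the letters and no proof of a bound site.

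The libraries held 27837530 to 40327869 counts on genes, and levels are given as counts per 1000000 counts of a library (CPM, scaled by TMM). At these depths, 3 counts corresponded to 0.0769 to 0.107 CPM, a floor that covers counting error alone. All 18 pairs of replicates differed by more than the sampling noise, and p-values measure the spread between these replicates. The osteoclast identity was checked with 10 markers, which together summed to 28358 to 34496 CPM in OCsCtr, 18093 to 23205 CPM in OCsEo and 14942 to 22171 CPM in OCsEoS. A gene was called at a Benjamini-Hochberg adjusted p under 0.05 over all 13681 genes tested (edgeR) and an absolute log2 fold change over 0.5. Of the 10 osteoclast markers, 8 were called lower in each comparison with OCsCtr, against 2.61% of all genes in OCsEo and 4.11% in OCsEoS. By adjusted p alone, all 10 were lower in each comparison, against 8.35% and 11.2% of all genes. In bulk RNA, fewer cells of a type and less RNA per cell cannot be told apart.

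The interferon-stimulated genes were transcribed in unstimulated osteoclasts over a wide range of levels. Per kilobase of gene length, the highest mean level in OCsCtr was that of Ifitm3, which hinders the entry of viruses into cells, at 454 CPM per kb. It was followed by Bst2, whose product tethers budding viruses to the cell, at 128 CPM per kb. Oas1a, an oligoadenylate synthetase, followed at 51.6 CPM per kb, Isg15 at 47.8, Rtp4 at 45.4 and Irf7 at 41.7 CPM per kb. The spread between the OCsCtr libraries was larger than the steps between the last 4 of these genes. The 2 Mx genes, which encode antiviral GTPases, were lowest, Mx1 at 0.290 and Mx2 at 0.124 CPM per kb. In 23 of the 34 genes the level in OCsCtr was under 10 CPM per kb.

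Single libraries set much of the spread within the groups, and this is given before the comparisons because both rest on the OCsCtr libraries. The library OCsCtr 4 had the highest level of its group in 33 of the 34 genes, the exception being Mx1, whereas OCsCtr 4 was highest in 26.9% of all genes tested. Its level exceeded the mean of the other 3 OCsCtr libraries by a median ratio of 1.80 (1.18 to 3.31), and by more than 1.5-fold in 25 of the 34 genes, against 7.10% of all genes. OCsEo 4 was likewise highest in its group for 32 of the 34 genes, all but Ifih1 and Mx1, at a median ratio of 1.55 (1.09 to 2.68), and was highest in 23.1% of all genes. Both libraries exceeded the others of their group by more than 1.5-fold in 16 of the 34 genes (47.1%), against 2.10% of all genes tested. In OCsEoS no library stood out in this way, as OCsEoS 1, 2, 3 and 4 were highest for 6, 10, 9 and 9 genes.

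**Figure D1:**
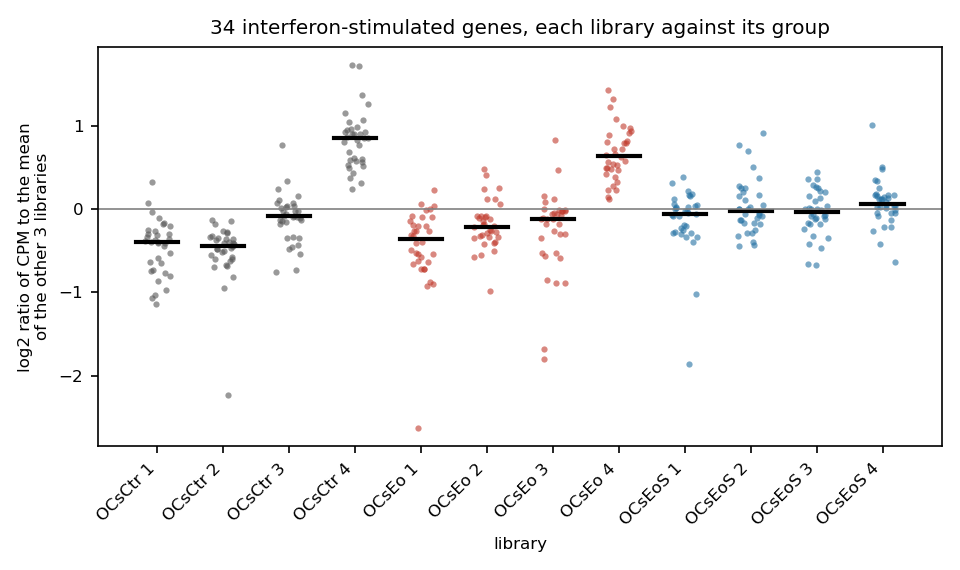
The log2 ratio of CPM in each library to the mean of the other 3 libraries of its group is plotted for each of the 34 interferon-stimulated genes, with points for genes and a bar for their median. The median ratio was 1.80 in OCsCtr 4 and 1.55 in OCsEo 4, which on this log2 axis lie above 0, and it lay between 0.961 and 1.05 in the 4 OCsEoS libraries, near 0 on this axis.

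The coefficient of variation of the 34 genes had a median of 35.1% in OCsCtr and 28.7% in OCsEo, whereas it was 11.1% and 13.6% over all genes in these groups. In OCsEoS the median was 13.5%, next to 13.4% over all genes. The SD of CPM was lowest in OCsEoS for 31 of the 34 genes. For these 34 genes, the direction in which OCsCtr differed from OCsEoS depended on the library: OCsCtr 1 was below all 4 OCsEoS libraries in 29 genes, OCsCtr 2 in 28 and OCsCtr 3 in 19, while OCsCtr 4 was above all 4 of them in 25 genes. The shares of all genes in these positions were not computed. The 34 genes vary together by library, so these counts are not those of independent genes.

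A transcription factor, a sensor and 2 effectors are given as examples of this spread. Irf7, which encodes the transcription factor that amplifies type I interferon production, was at 101, 87.1, 120 and 195 CPM in OCsCtr, at 92.4, 105, 135 and 217 CPM in OCsEo and at 115, 133, 155 and 116 CPM in OCsEoS. OCsCtr 4 and OCsEo 4 were thus above all other libraries for Irf7, and the groups overlapped. Ddx58, which encodes the RNA sensor RIG-I, was at 19.9, 18.8, 17.96 and 36.6 CPM in OCsCtr, at 27.3, 29.8, 16.5 and 32.05 CPM in OCsEo and at 25.1, 26.4, 22.0 and 23.6 CPM in OCsEoS. For Ddx58, OCsCtr 4 held the highest of the 12 levels.

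Among the effectors, Ifit3, whose family binds foreign RNA and blocks its translation, was at 3.22, 4.01, 3.92 and 12.3 CPM in OCsCtr, at 3.14, 4.28, 6.54 and 6.72 CPM in OCsEo and at 5.73, 5.79, 3.65 and 5.74 CPM in OCsEoS. Isg15, which encodes a small protein that is conjugated to other proteins, was at 23.2, 29.7, 36.3 and 55.3 CPM in OCsCtr, at 21.3, 31.0, 32.7 and 53.2 CPM in OCsEo and at 35.8, 39.9, 41.4 and 54.4 CPM in OCsEoS. For Isg15, the library with the number 4 was highest in each group. Near-identical copies of Ifit3, Oas1a and Trim30a exist in the mouse genome, and reads shared with them may be counted in either gene.

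Genes with and without the ISRE letters were similarly high in OCsCtr 4. The median ratio of OCsCtr 4 to the other 3 libraries was 1.64 (1.24 to 3.31) in the 12 genes with the letters and 1.80 (1.18 to 2.59) in the 14 genes whose promoter in the table did not hold them.

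**Figure D2:**
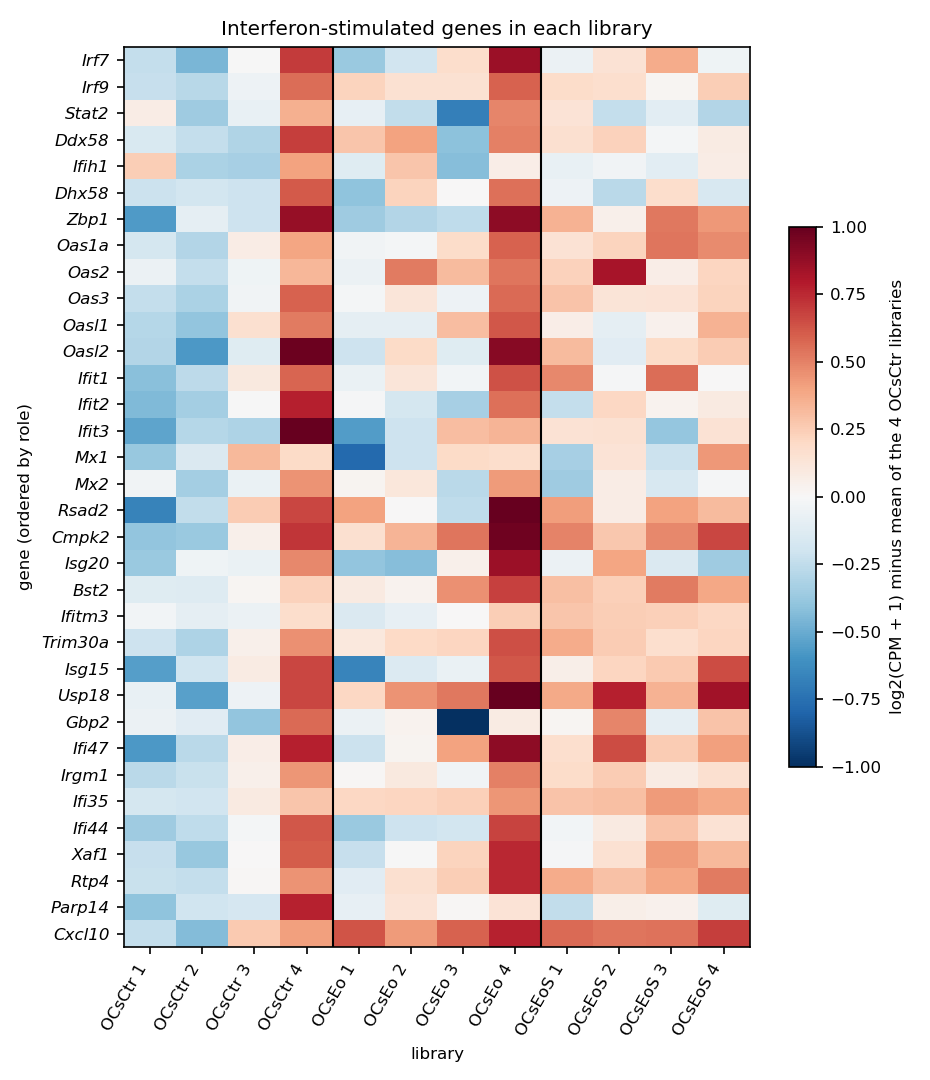
Heat map of the 34 genes (rows, ordered by role) in the 12 libraries (columns), where color gives log2(CPM + 1) less the mean of the 4 OCsCtr libraries, cut at 1 in both directions. The columns OCsCtr 4 and OCsEo 4 are red over nearly the whole list, and Cxcl10 in the last row is red in all 8 stimulated libraries.

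The markers of other cells were set beside these libraries. The summed level of 6 markers of plasmacytoid dendritic cells, which are known as strong producers of type I interferon, was 2.71 to 9.05 CPM in OCsCtr, with the highest value in OCsCtr 4, but 4.23 to 6.18 CPM in OCsEo, where OCsEo 4 was at 4.95 CPM, and 3.27 to 6.63 CPM in OCsEoS. None of the 6 was at 0 over a whole group. Of these, Siglech was at 3.05 CPM in OCsCtr 4 and at 0.277 CPM in OCsEo 4. The sum of 8 markers of T and NK cells was between 0.956 and 3.23 CPM in all libraries, with 4 of the 8 at 0 in OCsCtr, 1 in OCsEo and 4 in OCsEoS. The sum of 5 B cell markers was 7.39 to 21.4 CPM in OCsCtr, 18.1 to 20.5 CPM in OCsEo and 15.05 to 21.4 CPM in OCsEoS, with none at 0. It was highest of its group in OCsCtr 4, whereas OCsEo 4 was at 18.7 CPM. The sum of 8 monocyte and macrophage markers was highest in OCsCtr 4 (2574 CPM) and OCsEo 4 (2352 CPM) of their groups, over ranges of 2244 to 2574 CPM, 1989 to 2352 CPM and 1766 to 2170 CPM in OCsCtr, OCsEo and OCsEoS. Ly6c2, a marker of inflammatory monocytes that interferon also induces, was at 13.9 CPM in OCsCtr 4 and at 11.7 CPM in OCsEo 4, the highest of their groups. The part of these cells in the levels of the 2 libraries was not tested.

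Upon contact with eosinophils, 1 of the 34 genes was called higher, namely Cxcl10, and 0 were called lower (edgeR). Of all genes tested, 3.27% were called higher and 2.61% lower in this comparison. An unadjusted p under 0.05 was found for 5 of the 34 genes, all of them higher, against 29.7% of all genes in either direction, and DESeq2 also called 1 higher and 0 lower. The log2 fold changes of the 34 genes ran from -0.31 (Gbp2) to 0.62 (Cxcl10) with a median of 0.15, against -0.01 over all genes. Of the 34, 24 were above 0, against 49.1% of all genes. As the 34 genes vary together by library, this is no count of independent genes. By adjusted p alone, 1 of the 34 genes passed as higher, against 9.06% of all genes, and in 1 gene all OCsEo libraries were above all OCsCtr libraries, against 10.5% of all genes.

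Upon stimulation with eosinophil supernatant, Cxcl10 was again the 1 gene called higher, and 0 of the 34 were called lower (edgeR, and equally DESeq2). Of all genes tested, 3.63% were called higher and 4.11% lower. An unadjusted p under 0.05 was found for 7 of the 34 genes, all of them higher, against 34.3% of all genes in either direction. The log2 fold changes ran from -0.47 (Mx2) to 0.59 (Cxcl10) with a median of 0.17, against -0.01 over all genes. Of the 34, 26 were above 0, against 49.4% of all genes, and here too they vary together. By adjusted p alone, 4 genes passed as higher, namely Cxcl10, Ifi35, Ifitm3 and Bst2, against 11.8% of all genes, and all OCsEoS libraries were above all OCsCtr libraries in 4 genes, against 12.6% of all genes.

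Between OCsEoS and OCsEo, 0 of the 34 genes were called in either direction by edgeR and by DESeq2, against 0.38% of all genes by edgeR, and 1 gene, Ifitm3, had an unadjusted p under 0.05, against 11.1% of all genes. The median log2 fold change was -0.00028, and the smallest adjusted p of the 34 genes was 0.224.

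**Figure D3:**
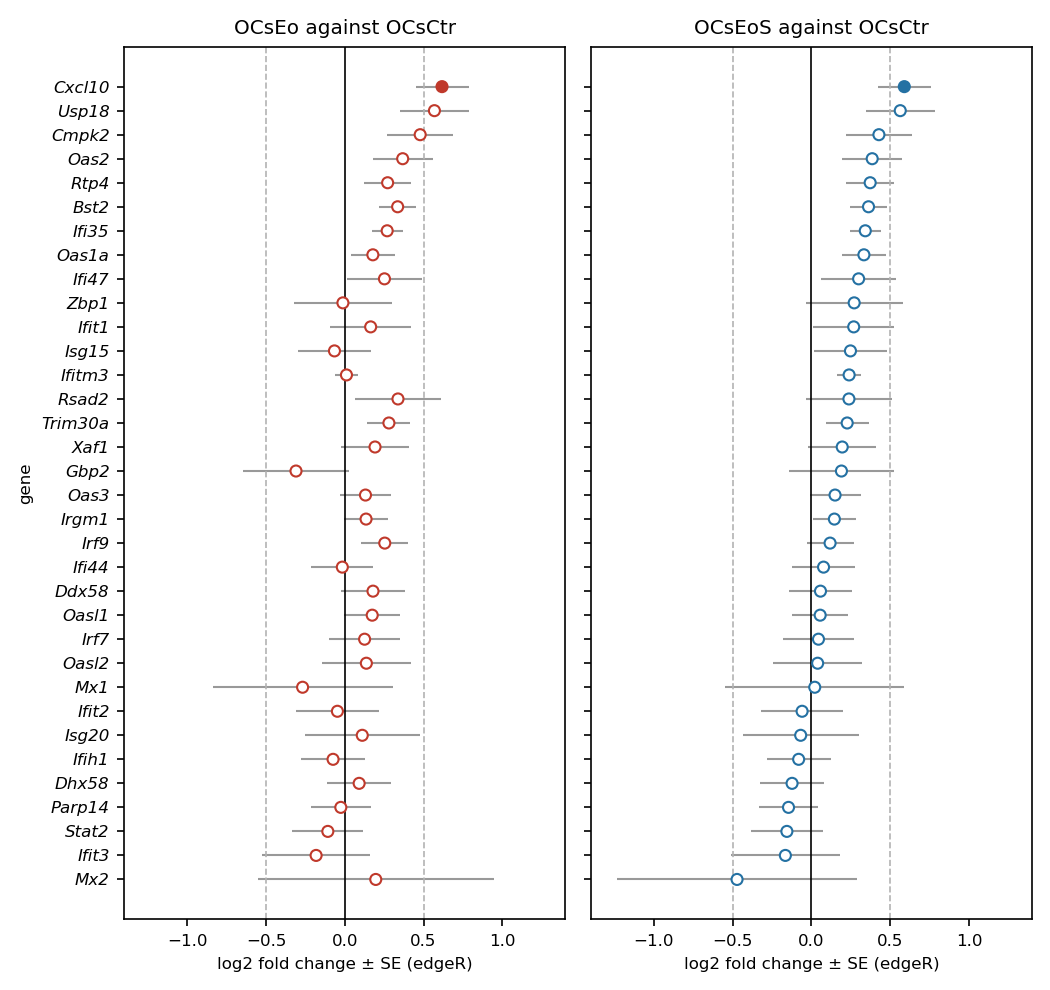
Log2 fold changes with standard errors (edgeR) of the 34 genes in OCsEo (left) and OCsEoS (right) against OCsCtr, ordered by the change in OCsEoS, with filled points for genes called and dashed lines at 0.5 and -0.5. The filled point in both panels is Cxcl10, at 0.62 and 0.59.

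The chemokine CXCL10 attracts T cells and NK cells through the receptor CXCR3, and its gene Cxcl10 (ENSMUSG00000034855, chr5:92346638-92348889, minus strand, GRCm38) responds to both type I interferon and interferon gamma. Cxcl10 was at 7.42, 6.35, 10.95 and 12.2 CPM in OCsCtr, at 14.4, 12.4, 13.97 and 15.97 CPM in OCsEo and at 13.7, 13.4, 13.5 and 15.02 CPM in OCsEoS. The OCsCtr libraries 3 and 4 lay close to the stimulated libraries, and OCsCtr 1 and 2 well below them, but the groups did not overlap. The mean level was 9.24 ± 2.80 CPM (SD, n = 4) in OCsCtr, 14.2 ± 1.47 CPM in OCsEo and 13.9 ± 0.754 CPM in OCsEoS, which corresponded to a 1.53-fold and 1.505-fold increase. The log2 fold change was 0.62 ± 0.17 (SE, adjusted p = 0.0144) in OCsEo and 0.59 ± 0.17 (SE, adjusted p = 0.0150) in OCsEoS (edgeR). The call rested on the lowest control libraries: without OCsCtr 1 the changes of Cxcl10 came to 0.52 (adjusted p = 0.0532) and 0.49 (adjusted p = 0.0591), and without OCsCtr 2 they came to 0.48 (adjusted p = 0.0541) and 0.45 (adjusted p = 0.0555). A stretch of 133 exon bases is shared with Art3 on the other strand, which held 2.0 counts per library on average, against 413.8 for Cxcl10.

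Osteoclast markers, as given above, were lower in the same groups in which Cxcl10 was higher. Of 9 neutrophil markers, 2 were called in OCsEo, both higher, against 3.27% of all genes called higher, and 0 were called in OCsEoS. The 9 summed to 312 to 455 CPM in OCsCtr, 456 to 610 CPM in OCsEo and 357 to 425 CPM in OCsEoS, with none at 0. Of 10 eosinophil markers, 5 could be tested, of which Alox15 and Siglecf were called higher in OCsEo and 0 were called higher and 1, Prg2, lower in OCsEoS. Of all genes, 3.27% were called higher in OCsEo, and 3.63% were called higher and 4.11% lower in OCsEoS. By adjusted p alone, 2 of the 5 were higher and 1 lower in OCsEo, against 9.06% and 8.35% of all genes. In OCsEoS 0 were higher and 2 lower, against 11.8% and 11.2%. The 10 summed to 57.1 to 73.7 CPM in OCsCtr, 60.1 to 82.2 CPM in OCsEo and 49.3 to 55.5 CPM in OCsEoS, and 4 of the 10, Epx, Prg3, Ear1 and Ear6, were at 0 in all OCsEoS libraries. Most of the sum was Ccr3, at 51.3 to 65.6 CPM in OCsCtr, 45.7 to 53.2 CPM in OCsEo and 47.3 to 52.95 CPM in OCsEoS. Apart from it, Alox15 was at 0.104 to 0.653 CPM in OCsCtr, 6.24 to 16.7 CPM in OCsEo and 0.178 to 1.13 CPM in OCsEoS, and Siglecf was at 0.218 to 0.653 CPM, 2.53 to 3.28 CPM and 0.237 to 1.30 CPM. The part of eosinophils in the level of Cxcl10 in OCsEo was not tested.

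A further 3 genes passed the adjusted p in OCsEoS without reaching the fold change required for a call. Ifi35, whose product binds other interferon-induced proteins, was at 36.4, 36.0, 44.0 and 50.4 CPM in OCsCtr, at 47.9, 48.1, 48.8 and 56.4 CPM in OCsEo and at 50.5, 51.2, 55.7 and 54.1 CPM in OCsEoS. The OCsEoS libraries lay just above OCsCtr 4, with a log2 fold change of 0.34 ± 0.10 (SE, edgeR adjusted p = 0.0154), while OCsEo overlapped with OCsCtr at 0.27 ± 0.10 (adjusted p = 0.0657). Ifitm3 was at 302, 288, 295 and 347 CPM in OCsCtr, at 278, 291, 307 and 364 CPM in OCsEo and at 373, 364, 363 and 354 CPM in OCsEoS. In Ifitm3 the supernatant libraries were tightly grouped above all OCsCtr libraries, with a log2 fold change of 0.24 ± 0.08 (SE, edgeR adjusted p = 0.0257), whereas that in OCsEo was 0.01 ± 0.08 (adjusted p = 0.950). The difference between OCsEoS and OCsEo for Ifitm3 was 0.23 ± 0.08 and did not pass the adjustment with all 12 libraries (edgeR adjusted p = 0.224).

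Bst2 was at 89.1, 88.5, 98.5 and 114 CPM in OCsCtr, at 104, 99.6, 133 and 156 CPM in OCsEo and at 120, 115, 139 and 127 CPM in OCsEoS. The OCsEoS libraries lay above all OCsCtr libraries, in the lowest case narrowly, and the log2 fold change was 0.36 ± 0.12 (SE, edgeR adjusted p = 0.0289), next to 0.34 ± 0.12 (adjusted p = 0.0526) in OCsEo.

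Usp18 and Cmpk2 had the next largest log2 fold changes after Cxcl10 in both comparisons and were not called. USP18 removes ISG15 from proteins and dampens signaling at the type I interferon receptor, and Usp18 was at 14.8, 10.4, 15.1 and 25.4 CPM in OCsCtr, at 18.2, 21.7, 22.9 and 34.6 CPM in OCsEo and at 20.7, 27.5, 20.1 and 28.7 CPM in OCsEoS. With OCsCtr 4 among the controls, the groups overlapped, and the log2 fold changes were 0.57 ± 0.22 (SE, edgeR adjusted p = 0.0806) in OCsEo and 0.56 ± 0.22 (adjusted p = 0.0694) in OCsEoS. Cmpk2, which encodes a mitochondrial nucleotide kinase and lies beside Rsad2 on chromosome 12, was at 14.6, 14.8, 20.2 and 32.6 CPM in OCsCtr, at 21.9, 24.8, 28.7 and 39.2 CPM in OCsEo and at 27.9, 23.7, 27.6 and 31.5 CPM in OCsEoS. Its log2 fold changes were 0.48 ± 0.21 (SE, edgeR adjusted p = 0.125) and 0.43 ± 0.21 (adjusted p = 0.152). For both genes, OCsCtr 1, 2 and 3 lay below all 8 stimulated libraries, and OCsCtr 4 lay among them.

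**Figure D4:**
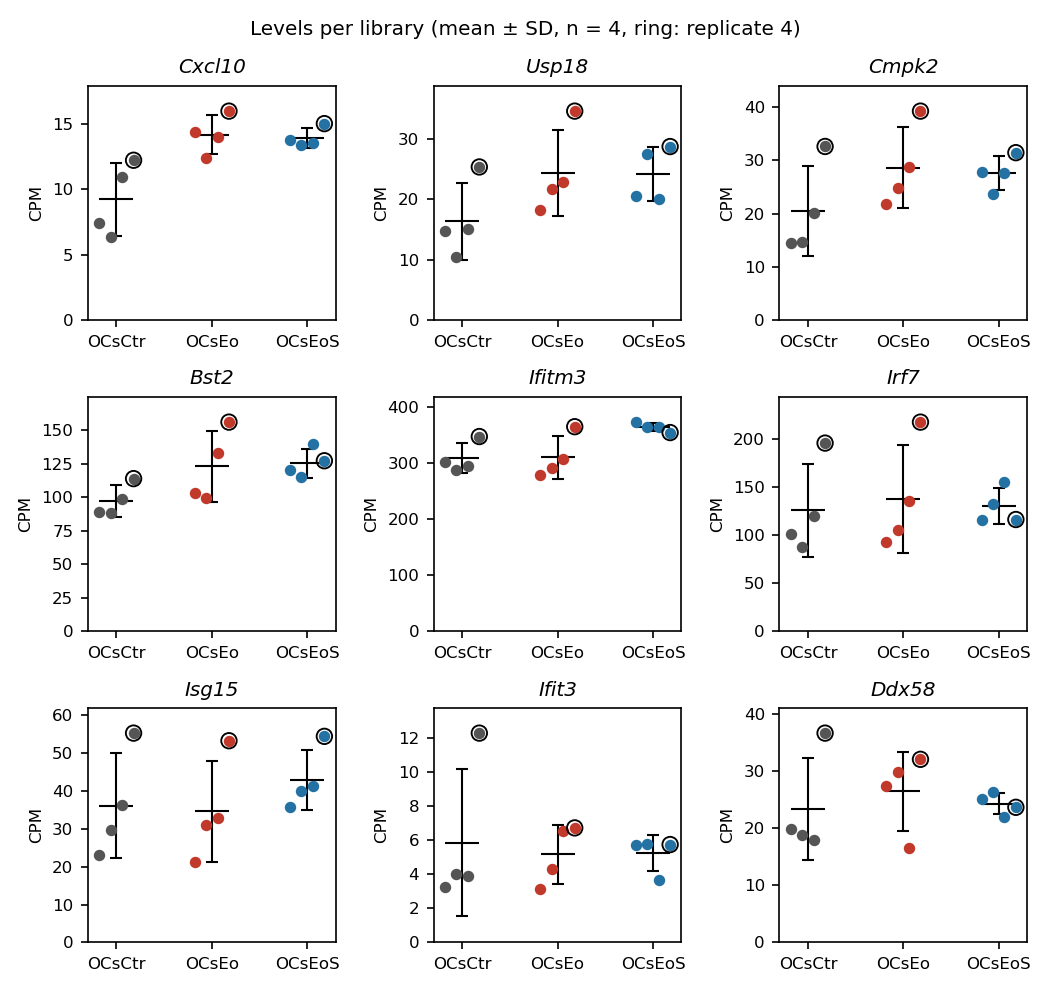
CPM of 9 interferon-stimulated genes in each library (points), with the mean and SD of each group (n = 4) as bars, and a ring around the library with the number 4. For Cxcl10 the OCsCtr levels (6.35 to 12.2 CPM) lie below those of both stimulated groups, and for the other genes shown the ringed OCsCtr library reaches into or above both stimulated groups, except for Bst2 and Ifitm3, where it lies below all OCsEoS points.

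The transcript of Rtp4, which encodes a receptor transporter protein, was at 59.7, 59.3, 70.5 and 95.8 CPM in OCsCtr, at 64.5, 78.4, 83.2 and 119 CPM in OCsEo and at 91.0, 86.1, 91.9 and 101 CPM in OCsEoS. Its log2 fold change was 0.27 ± 0.15 (SE, edgeR adjusted p = 0.247) in OCsEo and 0.37 ± 0.15 (adjusted p = 0.0837) in OCsEoS. The OCsEoS libraries lay above OCsCtr 1, 2 and 3 and on both sides of OCsCtr 4. Exon bases of Rtp4, Irf9, Parp14 and Ifi47 are shared with another gene on the same strand in GENCODE vM21, so that their counts are uncertain to that extent.

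The oligoadenylate synthetases make a second messenger that activates RNase L, which degrades RNA. All 5 genes of this family had log2 fold changes above 0 in both comparisons, between 0.13 and 0.37 in OCsEo and between 0.04 and 0.39 in OCsEoS, and none passed the test. Oas1a was at 84.4, 78.0, 101 and 126 CPM in OCsCtr, at 93.3, 94.4, 109 and 144 CPM in OCsEo and at 106, 112, 139 and 133 CPM in OCsEoS, with log2 fold changes of 0.18 ± 0.14 (SE, edgeR adjusted p = 0.446) and 0.33 ± 0.14 (adjusted p = 0.0971). Oas2 was at 8.18, 7.12, 8.30 and 11.04 CPM in OCsCtr, at 8.16, 12.7, 10.9 and 12.9 CPM in OCsEo and at 10.2, 15.9, 9.02 and 10.1 CPM in OCsEoS, at 0.37 ± 0.19 (adjusted p = 0.207) and 0.39 ± 0.19 (adjusted p = 0.159). Both genes overlapped between the groups, and a single library, OCsEoS 2, held the highest level of Oas2.

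Trim30a, Irf9 and Gbp2 complete the 12 genes with the smallest p-values over the 3 comparisons, Gbp2 through that of OCsEoS with OCsEo alone. Trim30a, an interferon-induced member of the tripartite motif family, was at 40.1, 37.2, 48.1 and 63.9 CPM in OCsCtr, at 49.97, 53.4, 53.99 and 72.8 CPM in OCsEo and at 60.2, 55.4, 52.2 and 53.9 CPM in OCsEoS. Its log2 fold changes were 0.28 ± 0.14 (SE, edgeR adjusted p = 0.176) and 0.23 ± 0.14 (adjusted p = 0.259), and OCsCtr 4 was above all OCsEoS libraries.

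Irf9, the subunit that directs the STAT complex to the ISRE, was at 28.7, 27.8, 32.6 and 50.4 CPM in OCsCtr, at 39.6, 37.6, 37.8 and 51.4 CPM in OCsEo and at 38.5, 38.2, 34.4 and 40.3 CPM in OCsEoS. The log2 fold changes of Irf9 were 0.25 ± 0.15 (SE, edgeR adjusted p = 0.276) and 0.12 ± 0.15 (adjusted p = 0.632), with 3 OCsCtr libraries below all 8 stimulated libraries and OCsCtr 4 above all but OCsEo 4. Gbp2, a guanylate-binding protein that is known to respond strongly to interferon gamma, was at 3.05, 2.91, 2.21 and 5.26 CPM in OCsCtr, at 3.05, 3.32, 1.03 and 3.46 CPM in OCsEo and at 3.28, 4.92, 2.97 and 4.14 CPM in OCsEoS. The log2 fold changes of Gbp2 were -0.31 ± 0.34 (adjusted p = 0.602) and 0.19 ± 0.33 (adjusted p = 0.746), and between OCsEoS and OCsEo it was at 0.50 ± 0.33 (adjusted p = 0.619), where OCsEo 3 held its lowest level.

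None of the other 22 genes passed the test in either comparison, with adjusted p-values of 0.454 to 0.986 in OCsEo and 0.416 to 0.985 in OCsEoS (edgeR). Their log2 fold changes ran from -0.27 to 0.34 in OCsEo, with 13 above 0, and from -0.47 to 0.30 in OCsEoS, with 14 above 0. By role, the RNA and DNA sensors (Ddx58, Ifih1, Dhx58 and Zbp1) had a median log2 fold change of 0.04 in OCsEo and -0.01 in OCsEoS. The median of the IFIT genes (Ifit1, Ifit2 and Ifit3) was -0.05 and -0.06, that of the transcription factors (Irf7, Irf9 and Stat2) was 0.13 and 0.05, and that of the GTPases (Gbp2, Ifi47 and Irgm1) was 0.13 and 0.19. The 8 other antiviral effectors (Mx1, Mx2, Rsad2, Cmpk2, Isg20, Bst2, Ifitm3 and Trim30a) had a median of 0.24 and 0.23. Ifi35, Ifi44, Xaf1, Rtp4 and Parp14, which were put in no such role, had a median of 0.19 and 0.20. Oas3, Oasl1 and Oasl2 completed the synthetase family. In the lowest of these genes, Mx1 and Mx2, the levels of 0.107 to 1.72 CPM gave standard errors between 0.57 and 0.76. A change must exceed its standard error clearly to pass the test, so changes of this size were not detectable at this depth.

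The comparisons were repeated without the libraries that stood apart, which raises the fold change against OCsCtr by construction because OCsCtr 4 was the highest control. These libraries were picked because they stood apart in these same genes, so leaving them out can also narrow the spread of these genes. The calls and adjusted p-values of these fits are therefore a description and no test. The shares of all genes beside them are no equal measure, as the libraries were not picked on all genes. Without OCsCtr 4, 3 of the 34 genes were called higher in OCsEo (Cmpk2, Usp18 and Cxcl10), against 3.02% of all genes, and 5 in OCsEoS (Cmpk2, Usp18, Ifi47, Rtp4 and Cxcl10), against 3.15% of all genes. The median log2 fold change was then 0.42 and 0.43, against -0.0029 and -0.0023 over all genes, with 32 and 33 of the 34 genes above 0. Usp18 reached 0.86 ± 0.20 (SE, edgeR adjusted p = 0.00594) in OCsEo and 0.85 ± 0.20 (adjusted p = 0.00470) in OCsEoS, and Cmpk2 reached 0.79 ± 0.17 (adjusted p = 0.00426) and 0.74 ± 0.17 (adjusted p = 0.00502). Ifi47, an interferon-inducible GTPase, and Rtp4 in OCsEoS reached 0.64 ± 0.21 (adjusted p = 0.0392) and 0.55 ± 0.14 (adjusted p = 0.00994).

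With OCsCtr 4 and OCsEo 4 both left out, which was added after the values were seen, 3 of the 34 genes were called higher in OCsEo, against 2.73% of all genes, and 8 in OCsEoS, against 3.20% of all genes. The 3 were Cmpk2, Usp18 and Cxcl10, and the 8 were these and Zbp1, Oasl2, Isg15, Ifi47 and Rtp4. Against the fit of all 12 libraries, the standard error in OCsEoS fell from 0.15 to 0.095 for Rtp4 and from 0.22 to 0.16 for Usp18. For Mx1 it rose from 0.57 to 0.64. The median log2 fold change was 0.22 in OCsEo and 0.43 in OCsEoS, against -0.0101 and -0.0015 over all genes, with 26 and 33 of the 34 genes above 0. OCsEo 4 was the highest of its group in 32 of the 34 genes. Leaving it out therefore also raises the fold change of OCsEoS against OCsEo by construction. With all 12 libraries, the median between OCsEoS and OCsEo was -0.00028 with 17 genes above 0. Without OCsCtr 4 and OCsEo 4, that median was 0.22 with 29 genes above 0, and 0 genes were called. By adjusted p alone, 1 gene passed there, against 0.389% of all genes, namely Ifitm3, higher in OCsEoS at 0.32 ± 0.06 (SE, edgeR adjusted p = 0.0186). Zbp1, a sensor of nucleic acid in the Z conformation, was at 0.70 ± 0.18 (SE, edgeR adjusted p = 0.0117) in OCsEoS and at -0.03 ± 0.19 (adjusted p = 0.949) in OCsEo, and Isg15 was at 0.53 ± 0.17 (adjusted p = 0.0370) and -0.07 ± 0.18 (adjusted p = 0.874).

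Leaving out a low control moved the values the other way. Without OCsCtr 1 the median log2 fold change of the 34 genes was 0.04 in OCsEo and 0.05 in OCsEoS, and without OCsCtr 2 it was 0.05 and 0.07, with 0 genes called in each case. Without OCsEo 4, the median in OCsEo was -0.05, and Usp18 joined Cxcl10 as a call in OCsEoS, at 0.56 (edgeR adjusted p = 0.0476).

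**Figure D5:**
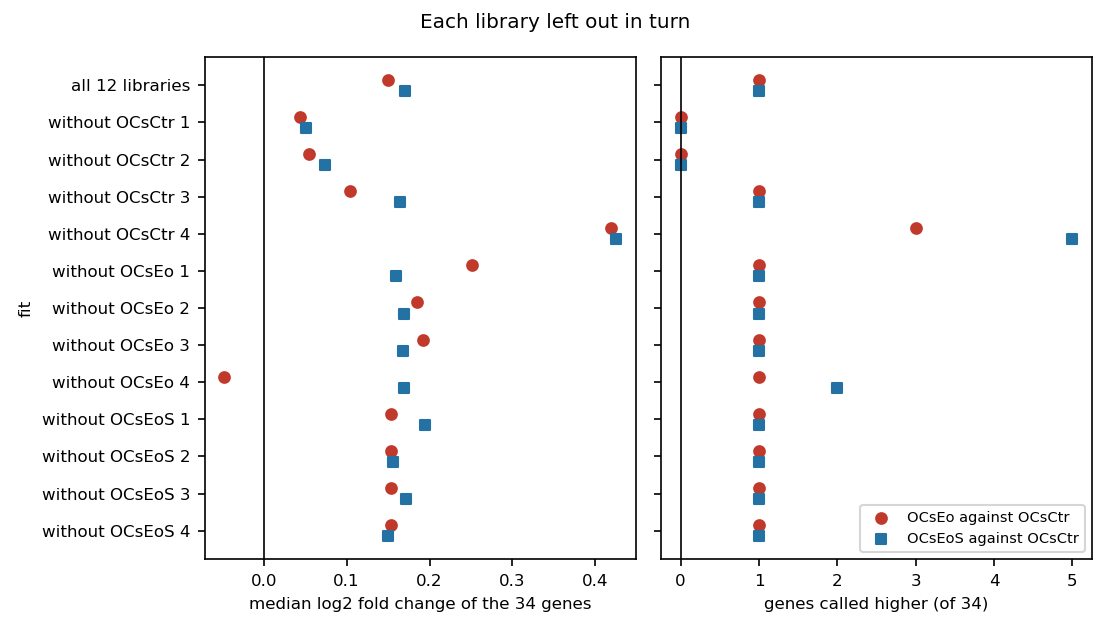
Median log2 fold change of the 34 genes (left) and number of genes called higher (right) in the fit of all 12 libraries and in the 12 fits that leave out 1 library each, for OCsEo (circles) and OCsEoS (squares) against OCsCtr. Leaving out OCsCtr 4 gives the largest medians, 0.42 and 0.43, and the largest counts, 3 and 5, and leaving out OCsCtr 1 or OCsCtr 2 gives counts of 0.

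The pathway upstream of these genes was examined from the ligands onward. Of 21 interferon genes, 20 had 0 counts in all 12 libraries, Ifnb1 among them, for which 3 counts would correspond to at most 0.107 CPM. Ifng had 2 counts, both in OCsCtr 2. The RNA was harvested on day 3, and earlier times were not analysed here.

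All 14 genes listed for the interferon receptors and JAK-STAT signaling were tested. In each comparison 0 were called lower and 1 was called higher, against 3.27% of all genes called higher in OCsEo and 3.63% in OCsEoS. The gene was Socs1, whose product inhibits JAK kinases. Socs1 was at 2.53, 2.70, 2.77 and 3.33 CPM in OCsCtr, at 4.57, 4.84, 4.56 and 4.26 CPM in OCsEo and at 4.56, 4.69, 2.88 and 6.36 CPM in OCsEoS. The log2 fold change was 0.69 ± 0.23 (SE, edgeR adjusted p = 0.0429) in OCsEo, where the groups were apart, and 0.71 ± 0.23 (adjusted p = 0.0305) in OCsEoS, where OCsEoS 3 lay within the range of OCsCtr. The call of Socs1 in OCsEo was lost without any one of OCsCtr 1, 2 and 3 and the 4 OCsEo libraries (adjusted p from 0.0587 to 0.102), and that in OCsEoS without OCsCtr 1, 2 or 3 or OCsEoS 4 (adjusted p from 0.0644 to 0.132).

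By adjusted p alone, 1 of these 14 genes was higher in each comparison, against 9.06% of all genes in OCsEo and 11.8% in OCsEoS. In OCsEo 2 were lower (Ifngr2 and Pias1), against 8.35% of all genes, and in OCsEoS 4 (Ifnar1, Ifngr2, Tyk2 and Pias1), against 11.2%. Among the receptor subunits, the log2 fold changes in OCsEo and OCsEoS were -0.07 ± 0.09 and -0.29 ± 0.09 for Ifnar1, 0.14 ± 0.08 and -0.08 ± 0.08 for Ifnar2, and 0.14 ± 0.10 and 0.11 ± 0.10 for Ifngr1, of which Ifnar1 in OCsEoS passed the adjusted p alone (edgeR adjusted p = 0.0207). Ifngr2, the second subunit of the interferon gamma receptor, was at 135, 143, 140 and 151 CPM in OCsCtr, at 118, 127, 124 and 121 CPM in OCsEo and at 129.9, 124.5, 119 and 117 CPM in OCsEoS. All stimulated libraries were below all OCsCtr libraries for Ifngr2, at -0.22 ± 0.06 in both comparisons (adjusted p = 0.0149 and 0.0122). Ifnlr1, the receptor subunit for interferon lambda, was low throughout, at 0.867 to 1.03 CPM in OCsCtr, 0.179 to 0.820 CPM in OCsEo and 0.0356 to 0.434 CPM in OCsEoS. Its groups were also apart, but it did not pass the test, at -0.86 ± 0.69 (adjusted p = 0.447) in OCsEo and -1.76 ± 0.71 (adjusted p = 0.0835) in OCsEoS. The kinase gene Tyk2 was lower in OCsEoS by adjusted p alone (log2 fold change -0.36 ± 0.08, adjusted p = 0.00393), at 28.7 to 36.2 CPM against 40.6 to 44.6 CPM in OCsCtr.

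Of 17 genes that act in the induction of interferon, 3 were called in OCsEo (Tmem173, Ikbke and Tlr3) and 2 in OCsEoS (Tmem173 and Ikbke), all of them higher. Of all genes, 3.27% and 3.63% were called higher in these comparisons. By adjusted p alone, 4 were higher and 2 lower in OCsEo, against 9.06% and 8.35% of all genes, and 4 were higher and 0 lower in OCsEoS, against 11.8% and 11.2%. Irf5, a transcription factor downstream of Toll-like receptors, was higher in both by adjusted p alone, at 0.37 ± 0.07 (SE, edgeR adjusted p = 7.3e-04) and 0.23 ± 0.07 (adjusted p = 0.0152). Mavs, the adaptor of the RNA sensors, and Tbk1, a kinase that activates IRF3, were lower in OCsEo by adjusted p alone, at -0.34 ± 0.09 (adjusted p = 0.0118) and -0.32 ± 0.08 (adjusted p = 0.00868). Tmem173, which encodes the adaptor STING, was at 11.8, 11.1, 12.9 and 14.3 CPM in OCsCtr, at 17.5, 19.2, 21.0 and 18.6 CPM in OCsEo and at 16.8, 16.7, 19.0 and 19.7 CPM in OCsEoS. Its groups were apart, and the log2 fold changes were 0.60 ± 0.11 (SE, edgeR adjusted p = 0.00106) and 0.52 ± 0.11 (adjusted p = 0.00223). In OCsEoS the latter was 0.49 without OCsCtr 1, 0.48 without OCsCtr 2 and 0.49 without OCsEoS 4, each with an adjusted p under the threshold.

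Ikbke, which encodes a kinase that activates IRF3 and IRF7, was at 6.10, 5.10, 5.21 and 7.18 CPM in OCsCtr, at 10.6, 9.52, 8.66 and 11.3 CPM in OCsEo and at 12.8, 7.61, 9.17 and 10.1 CPM in OCsEoS. All stimulated libraries were above all OCsCtr libraries, with log2 fold changes of 0.76 ± 0.17 (SE, edgeR adjusted p = 0.00388) and 0.75 ± 0.17 (adjusted p = 0.00337), and the call held in each of the 12 fits that left out 1 library. Tlr3, the endosomal sensor of double-stranded RNA, was at 1.68 to 2.36 CPM in OCsCtr and 3.56 to 4.61 CPM in OCsEo (log2 fold change 1.02 ± 0.27, adjusted p = 0.0109), and without OCsCtr 4 and OCsEo 4 together it was at 0.87 (adjusted p = 0.0853). In OCsEoS, Tlr3 was at 1.71 to 4.02 CPM (0.51 ± 0.27, adjusted p = 0.188). Irf3 did not pass the test, at 0.17 ± 0.09 (adjusted p = 0.200) and 0.15 ± 0.09 (adjusted p = 0.263).

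A list of 47 further interferon-stimulated genes, of which 45 were tested, gave the same pattern of libraries. OCsCtr 4 was highest of its group in 45 of the 45 genes, at a median ratio of 1.59 to the other 3 libraries, and OCsEo 4 in 37 of the 45, at a median ratio of 1.46. Both exceeded the others by more than 1.5-fold in 14 of the 45 genes (31.1%). The median log2 fold change was -0.03 in OCsEo and -0.04 in OCsEoS, and 0 genes were called higher in either comparison (edgeR). In each, 1 was called lower, against 2.61% of all genes in OCsEo and 4.11% in OCsEoS. An unadjusted p under 0.05 was found for 10 of the 45 genes in OCsEo (5 higher and 5 lower) and for 9 in OCsEoS (3 higher and 6 lower), also to be read against the 29.7% and 34.3% of all genes. By adjusted p alone, 2 were higher and 3 lower in OCsEo, against 9.06% and 8.35% of all genes. In OCsEoS 2 were higher and 2 lower, against 11.8% and 11.2%.

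In OCsEo the gene was Gbp7, another guanylate-binding protein, at 5.10, 4.93, 4.56 and 6.81 CPM in OCsCtr against 2.39, 3.27, 2.33 and 4.54 CPM in OCsEo, a log2 fold change of -0.78 ± 0.26 (SE, edgeR adjusted p = 0.0475). In 10 of the 12 fits that left out 1 library, those without OCsEo 4 or OCsEoS 4 being the exceptions, Gbp7 was not called (adjusted p from 0.0523 to 0.159). In OCsEoS it was Znfx1, a sensor of RNA at mitochondria, at 54.1, 61.3, 62.3 and 71.6 CPM in OCsCtr against 44.9, 49.0, 39.95 and 34.4 CPM in OCsEoS, a log2 fold change of -0.57 ± 0.11 (adjusted p = 8.3e-04), which was -0.496 without OCsCtr 4 and -0.48 without OCsEoS 4. Psmb8, a subunit of the immunoproteasome, was higher by adjusted p alone, at 0.38 ± 0.08 (adjusted p = 0.00269) and 0.41 ± 0.08 (adjusted p = 9.6e-04), as was Psmb9, another subunit of it. Pml, which forms nuclear bodies, was lower by adjusted p alone, at -0.35 ± 0.08 (adjusted p = 0.00466) and -0.39 ± 0.08 (adjusted p = 0.00128), with the groups apart in both comparisons.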

How the data were processed

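The authors cleaned reads with fastp, aligned them with HISAT2 2.0.5 to GRCm38/mm10 and obtained counts per gene with featureCounts. These counts were deposited by the authors raw, as whole numbers without normalization. The annotation release and the use of strand in counting are not given in the sources used here, so a gene may hold reads of a gene it overlaps. The labels give the cytokines in ng/µL and the paper in ng/mL.

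Genes under edgeR's filterByExpr (minimum count 10) were removed, which kept 13681 genes. All 12 libraries were fitted with TMM scaling and compared with edgeR's quasi-likelihood F-test (R 4.3.3, edgeR 4.0.16), which was tested on simulated data. P-values are Benjamini-Hochberg adjusted over all genes tested. The alternatives are given in the closing section. The 34 genes and the further lists were chosen with earlier results of these data known. All called genes among the 34, and those with the smallest unadjusted p up to 12 in all, were given by library, and Irf7, Ddx58, Ifit3 and Isg15 were added after their values were seen. From the pathway lists, Ifnar1, Ifnar2, Ifngr1, Irf3, Ifnb1 and the called genes were named by rule, with 1 gene of this rule not reported here, and Tyk2, Psmb8, Psmb9, Pml, Ifngr2, Ifnlr1, Pias1, Irf5, Mavs and Tbk1 after their values were seen. A listed gene was not matched. Exon overlaps came from GENCODE vM21. Sequencing batches are not given in the sources used here.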

Additional observations from a re-analysis of the deposited data

Results flagged for a closer look

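In 10 of 102 groups of 4 libraries (34 genes in 3 groups), 1 library lay far from the other 3 by Dixon's test at the 95% level. Chance gives about 1 in 20 for independent groups. The 34 genes vary together by library, so the number flagged cannot be read against that share. OCsCtr 4 was far above its group for Ddx58 (36.6 CPM), Dhx58 (25.3 CPM), Ifit3 (12.3 CPM) and Parp14 (33.1 CPM). OCsEo 4 was far above its group for Irf9 (51.4 CPM), Zbp1 (15.3 CPM), Ifi35 (56.4 CPM) and Ifi44 (142 CPM). OCsEo 3 was far below its group for Gbp2 (1.03 CPM) and OCsEoS 3 for Ifit3 (3.65 CPM).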

How the results depend on the processing

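The number of interferon-stimulated genes called higher stayed at 1 in each comparison with OCsCtr under DESeq2 (either on the 12 libraries or on the 2 groups compared), edgeR on those 2 groups, DESeq2 size factors, upper-quartile scaling, and at least 10 counts in every library. It was 2 in OCsEo and 2 in OCsEoS without a filter on low counts (Usp18 and Cxcl10), 0 and 0 with a log2 fold change over 1, and in OCsEoS 4 with no threshold on the fold change. Leaving out each library in turn gave 0 to 3 in OCsEo and 0 to 5 in OCsEoS, and without OCsCtr 4 and OCsEo 4 the numbers were 3 and 8. With the replicate block the numbers were 3 in OCsEo (Cmpk2, Usp18 and Cxcl10) and 2 in OCsEoS (Usp18 and Cxcl10). The replicate numbers were not taken as pairs, as the 12 correlations of deviations between libraries of the same number ran from -0.0435 to 0.0944 over all genes, with 0 above 0.1. Over the 34 genes alone, they ran from -0.230 to 0.507 with 7 above 0.1, and between OCsCtr and OCsEo they were 0.507, -0.188, 0.503 and 0.456 for numbers 1 to 4. A correlation over genes does not register a shift that the genes share, such as that of OCsCtr 4 and OCsEo 4. These correlations therefore cannot decide whether libraries of the same number belong together for the 34 genes. The numbers called lower stayed at 0 in these fits, and 0 single genes reversed a call. For the genes named, 46 values lost a call and 26 gained one. Some of these follow from the threshold on the fold change alone, which was raised or removed on the same fit. The cause of the others was not tested. In genes called in neither fit, 176 of 2820 values changed sign. Genes with few counts, such as Mx1 and Mx2, are limited by depth.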
